A study of Mus musculus with 120 samples.

Results

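Fatty acid uptake and oxidation genes were followed in 2 oxidative tissues, heart and soleus (a slow-twitch calf muscle), of mice with a mitochondrial mutation. The set holds 34 genes, named by function and not by any measured value, out of 53656 gene rows in each deposited count table. All 34 were found in every table, and all 34 passed the filter on low counts in both tissues. They fall into 8 steps. Uptake and binding has 5 genes, activation 2, the carnitine shuttle with its malonyl-CoA control 5, the matrix spiral of beta-oxidation 9, the handling of unsaturated acids 4, electron transfer to ubiquinone 3, thioesterases with Ucp3 4, and the lipid droplet 2.

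Muscle takes up long-chain fatty acids that lipoprotein lipase frees at the capillary wall, binds them in the cytosol and links them to coenzyme A. The carnitine shuttle then moves the acyl groups across the inner mitochondrial membrane, and the spiral of dehydrogenation, hydration, a further dehydrogenation and thiolysis shortens them in the matrix. Electrons from the first dehydrogenation reach ubiquinone through the electron transfer flavoprotein, which feeds the respiratory chain. Heart and slow muscle are tissues that rely on this route for much of their ATP.

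The series asks how mitochondrial mutations bear on the response to endurance training. All strains were on a C57BL/6Eij background with intact Nnt. ANT1 mice (Slc25a4-/-) lack the heart and muscle isoform of the adenine nucleotide translocator, which exchanges ADP and ATP across the inner mitochondrial membrane. ND5 mice carry m.12352C>T (S204F) and ND6 mice m.13997G>A (P25L), both in complex I subunits encoded by mitochondrial DNA (mtDNA), and CO1 mice carry m.6589T>C (V421A) in a complex IV subunit. Exercised mice ran for 45 min on every 2nd day at 50% of their maximal capacity, for 8 weeks from 16 weeks of age. Non-exercised mice were handled only, and tissue was taken 6 days after the last session. Each of the 16 groups (4 strains, exercised or non-exercised, soleus or heart) had 6 libraries, each from a separate mouse. The B6 control strain is not analysed here, so ANT1 mice were set against the equal-weight mean of the 3 mtDNA strains. All groups therefore carry a mitochondrial mutation, and a level that all strains share cannot be read as normal.

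Totals ranged from 10.2 to 20.7 M expected counts in soleus and from 19.7 to 26.5 M in heart (M for mega). Slc25a4 checked the labels: it averaged 14.5 ± 4.07 CPM (counts scaled to library size) in non-exercised ANT1 soleus, against 3189 ± 327 in CO1, 3355 ± 190.0 in ND6 and 2730.0 ± 462 in ND5 (SD, n = 6 each). In heart it differed by -9.51 on the log2 scale. Transcripts of mtDNA took 35.81 to 47.59% of counts in non-exercised ANT1 soleus and 12.87 to 23.02% in the 18 non-exercised mtDNA soleus libraries, which bears on how the libraries are scaled. Atrial markers varied widely between the hearts. A cut at 1000 CPM on the summed level of 7 atrial genes was set after the sums were seen. Above it lay 23 of 48 hearts, between 1037.5 and 36912.5 CPM, and 25 had between 42 and 995.9 CPM. No gap marks the cut. The heart of ND5 mouse B80 stood apart, with 9.23% of counts from mtDNA and cardiomyocyte markers summing to 4654.7 CPM. Both were the lowest of all hearts, and the next lowest cardiomyocyte sum was 25938.9 CPM, in ND6 heart I63. White adipocyte markers summed to 3570.3 CPM in B80, the highest of all hearts. Red blood cell transcripts summed to 116196 CPM there, beside 131923 in ND6 heart I58 and 104872 in I63. Mouse code B80 is labelled non-exercised in heart and exercised in soleus. In bulk tissue, fewer cells of a type and less RNA per cell cannot be told apart.

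Per length, Fabp3 and Lpl led the members in both tissues. In the authors' deposited FPKM values (fragments scaled to transcript length and library size), averaged over the 4 non-exercised strains, Fabp3 stood highest with 3252 FPKM in soleus and 3544 in heart. Fabp3 is the cytosolic fatty acid binding protein of heart and muscle. Lpl, the lipoprotein lipase, came next with 819 FPKM in soleus and 1201 in heart. Etfb, Hadhb and Ech1 followed with 533, 528 and 413 FPKM in soleus. The strain means of Etfb and Hadhb overlapped, so their order is not set. Angptl4, a secreted inhibitor of lipoprotein lipase, was lowest with 2.24 FPKM in soleus and 5.06 in heart. Of the carnitine palmitoyltransferases of the outer membrane, the muscle form Cpt1b had 189 FPKM in soleus and the liver form Cpt1a 2.65.

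**Figure D1:**
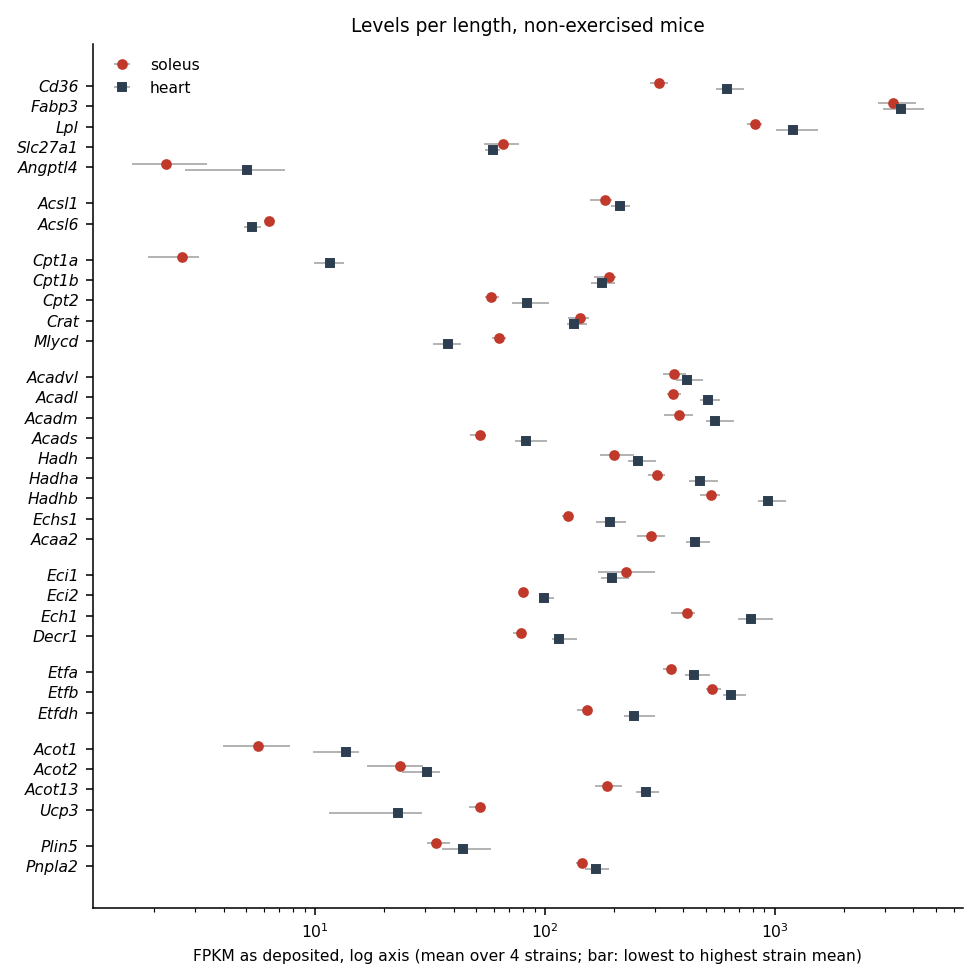
Level of each member per length in non-exercised mice, as deposited FPKM on a log axis (x) by gene and step (y), for soleus and heart. Points are means over the 4 strains and bars run from the lowest to the highest strain mean. Fabp3 is highest in both tissues (3252 FPKM in soleus, 3544 in heart) and Angptl4 lowest.

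The first comparison sets these genes in resting ANT1 muscle against the mtDNA strains. Without the control strain, a difference can lie on either side. On the TMM scale, which sets the bulk of genes equal between libraries, 31 of 34 members were higher in non-exercised ANT1 soleus than in the mtDNA strains and 0 were lower (edgeR quasi-likelihood test, Benjamini-Hochberg adjusted p under 0.05). The background was 22.4% of all 13935 tested genes called higher and 25.3% called lower. The members' median log2 difference was 0.68, beside -0.04 over all tested genes, and the 3 uncalled members were Angptl4, Cpt1a and Ucp3. This direction depends on the scaling. Against library totals, which count mtDNA transcripts in full, 9 members were higher and 3 lower, and 14 of 34 turned negative. In all tested genes, that scaling moved the median to -0.69, and relative to that median the members stood 0.73 higher, against 0.72 on the TMM scale. All 34 lay above the median of all genes on both scales and with the deposited FPKM values, by which 8 were higher and 4 lower. Of all counts, the members together took 1.53 ± 0.20% in ANT1 soleus, against 1.47 ± 0.21% in CO1, 1.54 ± 0.14% in ND6 and 1.32 ± 0.24% in ND5 (SD, n = 6 each). Of the nuclear counts alone, they took 2.495 ± 0.21% in ANT1, against 1.81 ± 0.29% in CO1, 1.94 ± 0.16% in ND6 and 1.57 ± 0.31% in ND5. Values below are on the TMM scale unless another is named, and each difference is a log2 value with its standard error. Shares of all tested genes called are given for the main TMM fits. They are not given for the alternatives, so those counts of members stand without a background.

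**Figure D2:**
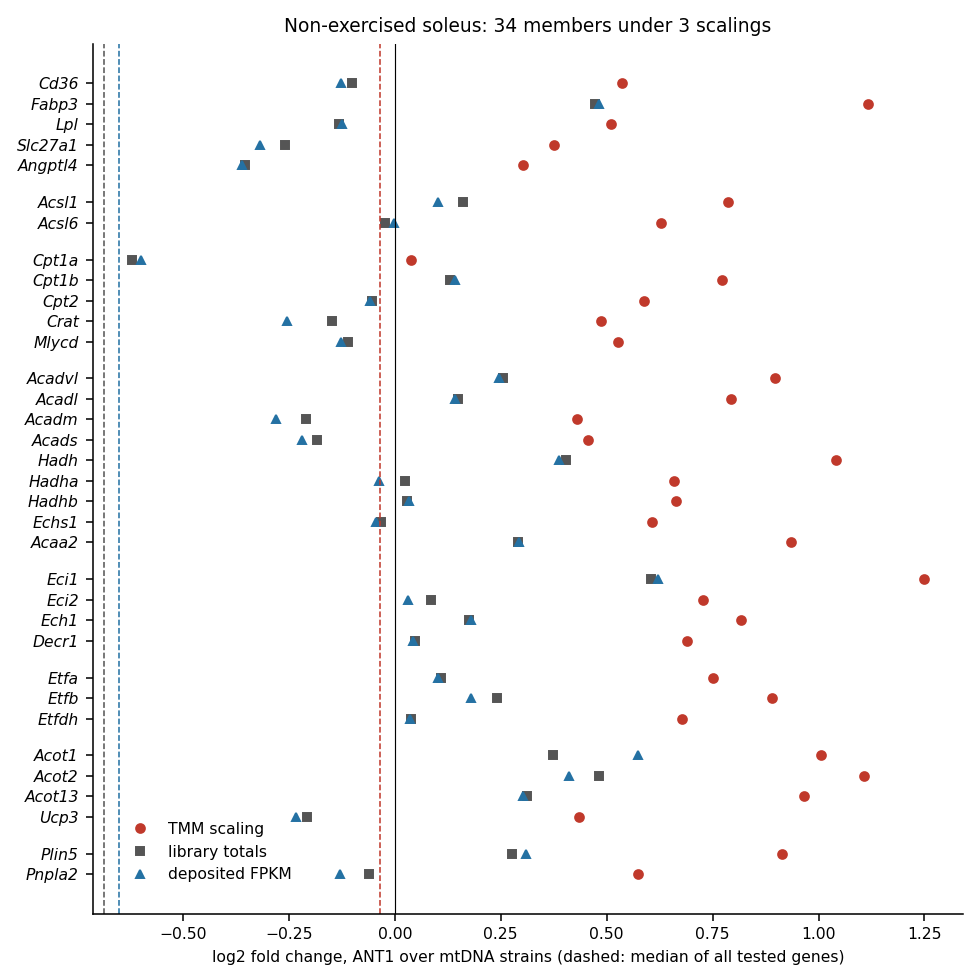
Log2 difference of each member (y), ANT1 over the mtDNA strains in non-exercised soleus (x), under TMM scaling, library totals and the deposited FPKM. Dashed lines are the medians of all tested genes, at -0.04, -0.69 and -0.65. Every member lies right of the dashed line of its own scale, and 14 lie left of 0 under library totals.

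Among the genes of uptake and binding, 4 of 5 were higher in non-exercised ANT1 soleus on the TMM scale. Fabp3 had 2624, 3302 and 3562 CPM as its lowest, median and highest value in ANT1, against 974, 1482 and 1841 in CO1, 1291, 1598 and 2268 in ND6 and 824, 1324 and 1739 in ND5. Its 6 ANT1 libraries all lay above the 18 others, and the difference was 1.12 ± 0.13, or 2.17-fold (adjusted p = 5.34e-10). Cd36, the fatty acid translocase of the cell surface, averaged 984 ± 164 CPM in ANT1, against 705 ± 141 in CO1, 769.8 ± 74.4 in ND6 and 577 ± 169 in ND5. Its groups overlapped slightly, with a difference of 0.54 ± 0.12 (adjusted p = 0.000387), and on library totals it was -0.10. Lpl differed by 0.51 ± 0.10 and Slc27a1, a fatty acid transport protein that also activates its substrate, by 0.38 ± 0.13; both were negative on library totals. Angptl4 was low and uneven, with 1.73, 3.22 and 13.3 CPM in ANT1, where library A58 alone made the top, and its difference of 0.30 ± 0.41 was not called. Of the 5, Fabp3 alone was called higher on library totals and by FPKM, and by FPKM Slc27a1 was called lower.

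Both genes of activation, the long-chain acyl-CoA synthetases, were higher. Acsl1, the main form of heart and muscle, had 601, 961 and 1158 CPM in ANT1, against 418, 570.4 and 756 in CO1, 462, 617 and 801 in ND6 and 287, 462 and 581 in ND5. The lowest ANT1 library lay within the range of ND6 and CO1, and the difference was 0.79 ± 0.14 (adjusted p = 1.6e-05). Acsl1 lies 0.26 Mb from Slc25a4 on chromosome 8, so strain differences in the flanking sequence of the knockout cannot be told apart from the knockout for this gene. Lpl, Slc27a1 and Mlycd lie on the same chromosome at 22.7, 25.4 and 73.2 Mb from Slc25a4. Acsl6 differed by 0.63 ± 0.09 at a low level of 24.8 CPM in ANT1, and was -0.02 on library totals. Neither gene was called on library totals or by FPKM.

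In the carnitine shuttle 4 of 5 were higher. Cpt1b, which makes acylcarnitine at the outer membrane and is the step that malonyl-CoA inhibits, had 614, 657 and 779 CPM in ANT1, against 341, 393 and 491 in CO1, 399, 456 and 508 in ND6 and 205, 347 and 411 in ND5. The ANT1 libraries all lay above the others, with a difference of 0.77 ± 0.10 (adjusted p = 2.03e-08). Cpt1b shares 75.6% of its 100-base windows with another annotated gene, Gm44502, so the split of reads between them is uncertain. Cpt1a did not follow its muscle counterpart: it had 7.71, 11.1 and 12.3 CPM in ANT1, against 8.94, 9.33 and 11.7 in CO1, 9.98, 10.6 and 12.5 in ND6 and 7.68, 10.5 and 11.6 in ND5. Those groups overlapped fully on the TMM scale and the difference was 0.04 ± 0.10 (adjusted p = 0.767), while on library totals Cpt1a was called lower, at -0.62. Cpt2, which returns the acyl group to coenzyme A in the matrix, differed by 0.59 ± 0.10 without overlap. Crat, the carnitine acetyltransferase, differed by 0.49 ± 0.10 and Mlycd, which degrades malonyl-CoA, by 0.53 ± 0.13; Cpt2, Crat and Mlycd were negative on library totals. No gene of the shuttle was called higher on library totals or by FPKM.

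The matrix spiral was higher in all 9 members on the TMM scale, with a median of 0.66. Of the chain-length-specific acyl-CoA dehydrogenases, Acadvl (very long chains) differed by 0.90 ± 0.09, Acadl (long chains) by 0.79 ± 0.07, Acadm (medium chains) by 0.43 ± 0.09 and Acads (short chains) by 0.45 ± 0.07. The long-chain pair was still called higher on library totals, at 0.26 and 0.15, whereas Acadm and Acads were called lower there, at -0.21 and -0.18. Acadm had 640.5, 794 and 841 CPM in ANT1, against 499.7, 607 and 703 in CO1, 574, 667 and 734 in ND6 and 327, 508 and 585 in ND5. Its ANT1 range overlapped those of ND6 and CO1.

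Hadh, the 3-hydroxyacyl-CoA dehydrogenase of medium and short chains, had 408, 521 and 604 CPM in ANT1, against 203, 258 and 300.1 in CO1, 230.3, 273 and 342 in ND6 and 167, 222 and 267 in ND5. No ANT1 library overlapped the others, and with a difference of 1.04 ± 0.08 (adjusted p = 3.26e-14) it stood highest in the spiral. Acaa2, the matrix thiolase, differed by 0.93 ± 0.09 and Echs1, the short-chain enoyl-CoA hydratase, by 0.61 ± 0.07, both without overlap. Hadha and Hadhb encode the alpha and beta subunits of the trifunctional protein, which carries the last 3 reactions of the spiral for long chains. Hadha averaged 1137 ± 163 CPM in ANT1, against 739 ± 133 in CO1, 825 ± 102 in ND6 and 614 ± 163 in ND5, and Hadhb 1296 ± 182 in ANT1, against 832 ± 157 in CO1, 953 ± 114 in ND6 and 691 ± 161 in ND5. Their differences were nearly equal, 0.66 ± 0.11 for Hadha and 0.66 ± 0.10 for Hadhb, and near 0 on library totals. Of the 9 spiral genes, 4 were called higher (Acadvl, Acadl, Hadh and Acaa2) and 2 lower (Acadm and Acads), both on library totals and by FPKM.

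Hadha and Hadhb are neighbours transcribed away from each other, with starts 86 bases apart on chromosome 5 in the GENCODE annotation. RefSeq places the starts elsewhere, and its windows, from 250 bases before to 50 after its own starts, share 228 bases, chr5:30155003-30155230 (GRCm38.p6, given on the plus strand), shown because this stretch lies upstream of both subunits' RefSeq starts:
Hadha and Hadhb, shared: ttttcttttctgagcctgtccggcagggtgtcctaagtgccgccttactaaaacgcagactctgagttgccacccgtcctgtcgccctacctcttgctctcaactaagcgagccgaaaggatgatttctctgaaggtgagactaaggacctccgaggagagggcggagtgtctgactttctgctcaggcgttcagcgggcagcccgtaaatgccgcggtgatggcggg

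All 4 genes that handle unsaturated acids were higher, with a median of 0.77. Eci1, the enoyl-CoA isomerase that moves double bonds of unsaturated acyl groups into the position the spiral can use, had the highest difference of all members. It had 317, 352 and 365 CPM in ANT1, against 120.2, 157 and 189 in CO1, 149.7, 172 and 199 in ND6 and 64.8, 132 and 151 in ND5. The lowest ANT1 library lay well above the highest of the 18 others, and the difference was 1.25 ± 0.11, or 2.38-fold (adjusted p = 1.31e-12). On library totals it was 0.60, and by deposited FPKM it was the single member whose ANT1 libraries did not overlap the mtDNA libraries, in either treatment. Ech1, the dienoyl-CoA isomerase, differed by 0.82 ± 0.10, Eci2, another isomerase also found in peroxisomes, by 0.73 ± 0.08, and Decr1, the dienoyl-CoA reductase of the matrix, by 0.69 ± 0.09, each without overlap on the TMM scale. On library totals and by FPKM Eci1 was the 1 of these 4 genes called.

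Eci1 lies at chr17:24426641-24439348 on the plus strand and Acadm at chr3:153922357-153944632 on the minus strand (GRCm38, GENCODE). Their promoter windows, set by the RefSeq starts, are shown since these 2 genes stand at the upper and near the lower end of the called differences, with the reverse complement of AGGTCA, a core motif bound by many nuclear receptors, in capitals. The Eci1 window, chr17:24426433-24426732 on the plus strand, holds none, and the Acadm window, chr3:153944594-153944893 on the minus strand, holds 1 at its 5′ end:
Eci1: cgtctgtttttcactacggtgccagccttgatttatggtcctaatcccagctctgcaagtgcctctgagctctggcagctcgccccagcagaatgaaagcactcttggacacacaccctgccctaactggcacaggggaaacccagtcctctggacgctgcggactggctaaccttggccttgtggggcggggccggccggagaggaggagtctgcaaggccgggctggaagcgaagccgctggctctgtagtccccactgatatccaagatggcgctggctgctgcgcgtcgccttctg
Acadm: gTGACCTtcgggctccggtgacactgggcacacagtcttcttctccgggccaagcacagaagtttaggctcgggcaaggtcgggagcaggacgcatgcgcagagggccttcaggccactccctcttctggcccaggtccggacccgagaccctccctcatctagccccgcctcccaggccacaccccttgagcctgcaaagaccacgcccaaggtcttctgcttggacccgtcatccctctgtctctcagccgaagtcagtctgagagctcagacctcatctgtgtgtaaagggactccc

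A RefSeq window was at hand for 27 of 34 members. AGGTCA, on either strand, occurred in 8 of the 27 (29.6%), beside 18.13% of 27025 windows of all genes. Those 8 were Acadm, Acadvl, Acsl6, Cd36, Cpt1a, Echs1, Plin5 and Ucp3, which include both called and uncalled genes. AAGGTCA, which contains AGGTCA, occurred in 2 (7.4%), beside 5.38% of all windows, and a direct repeat of AGGTCA with 1 base of any kind between the copies in 0, beside 0.05%. A match describes the letters of these windows and not a bound site.

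The 3 genes of electron transfer were higher without overlap. Etfb, the beta subunit of the electron transfer flavoprotein, had 335, 397 and 426 CPM in ANT1, against 194, 219 and 244 in CO1, 211, 221 and 257 in ND6 and 158, 202 and 221 in ND5. The ANT1 values lay close together and all above the rest, with a difference of 0.89 ± 0.07 (adjusted p = 6.25e-15). Etfb shares 35.8% of its 100-base windows with another annotated gene, so its level is uncertain. Etfa, the alpha subunit, differed by 0.75 ± 0.08, and Etfdh, the oxidoreductase that passes the electrons to ubiquinone, by 0.68 ± 0.11. On library totals and by FPKM Etfb was the 1 of 3 called, and by FPKM the libraries of all 3 overlapped.

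Of the thioesterases, which split acyl-CoA back into acid and coenzyme A, all 3 were higher, while Ucp3, a mitochondrial carrier induced by fatty acids, was not called. Acot13 differed by 0.97 ± 0.09 without overlap. Acot2, the matrix form, had 47.8, 64.3 and 159 CPM in ANT1, against 22.1, 41.9 and 56.5 in CO1, 27.6, 49.3 and 57.1 in ND6 and 10.04, 28.9 and 41.2 in ND5. The ANT1 libraries overlapped the others, and the difference was 1.11 ± 0.22. Library A58 alone made the top, at 7.32 log2 CPM, with A18 next at 6.25. Acot1, the cytosolic form, differed by 1.01 ± 0.30 at 11.9 CPM in ANT1; Acot1 and Acot2 share sequence with each other, so their split is uncertain. Ucp3 had 64.7, 122 and 270.3 CPM in ANT1, against 67.5, 96.1 and 156 in CO1, 56.8, 102 and 176 in ND6 and 33.2, 91.8 and 151 in ND5, a wide overlap with a difference of 0.43 ± 0.26 (adjusted p = 0.176). On library totals Acot2 and Acot13 were called higher, and by FPKM Acot13 alone. A58 was also the highest non-exercised ANT1 library for Acot1, at 4.94 log2 CPM with A75 next at 3.58. For Ucp3 it had 8.08, with A18 next at 7.12.

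Both lipid droplet genes were higher on the TMM scale. Plin5, which coats droplets next to mitochondria, had 76.5, 81.3 and 139 CPM in ANT1, against 24.5, 54.7 and 64.3 in CO1, 32.1, 53.8 and 72.7 in ND6 and 18.04, 43.2 and 68.6 in ND5. The groups did not overlap, and the difference was 0.91 ± 0.21 (adjusted p = 0.000414). The highest ANT1 value was that of A58. Pnpla2, the adipose triglyceride lipase, differed by 0.58 ± 0.13 and was -0.06 on library totals. Neither was called on library totals, by FPKM or with a fibroblast and matrix marker sum as a covariate; Plin5 was then 0.28, 0.31 and 0.53.

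**Figure D3:**
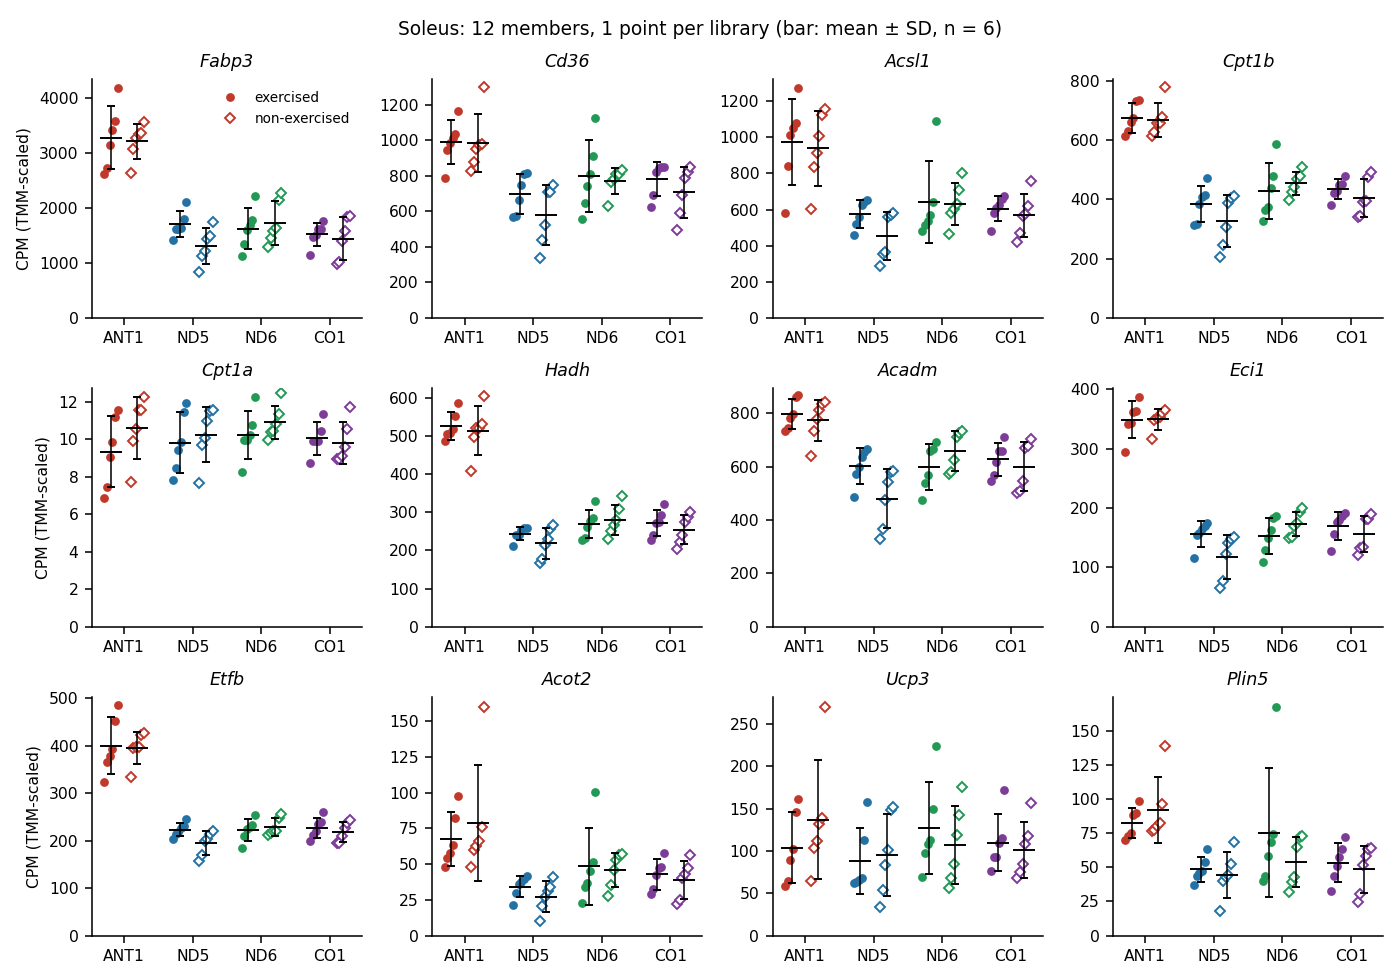
TMM-scaled CPM (y) of 12 members in soleus, 1 point per library, by strain (x); filled circles are exercised and open diamonds non-exercised mice, and bars are the mean ± SD of 6 libraries. ANT1 libraries lie above the others for Fabp3, Hadh, Eci1 and Etfb in both treatments, and the strains overlap for Cpt1a and Ucp3.

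Counted over libraries, 17 of 34 members had all 6 non-exercised ANT1 soleus values above all 18 mtDNA values and 0 had all below, beside 6.61% of tested genes above and 3.34% below. By deposited FPKM this held for 1 member, Eci1. Set against each mtDNA strain in turn, with the same 6 ANT1 libraries, 31 members were higher than in ND5 (background 22.3% higher and 26.7% lower), 26 higher than in ND6 (15.8% and 15%) and 30 higher than in CO1 (17% and 18.2%), and 0 were lower in any. On library totals these counts were 12 higher and 1 lower against ND5, 4 and 3 against ND6 and 7 and 4 against CO1, and by FPKM 13 and 2, 4 and 4, and 7 and 4. With a fibroblast and matrix marker sum as a covariate, 15 were higher than in ND5, 18 than in ND6 and 20 than in CO1. On the TMM scale Cd36, Slc27a1, Mlycd, Acadm and Acot1 were called against ND5 and not against ND6, where their differences were 0.35, 0.14, 0.37, 0.23 and 0.68. Slc27a1 and Acadm were also called between ND5 and ND6. Eci1 differed from each strain, by 1.57 ± 0.15 from ND5, 1.01 ± 0.15 from ND6 and 1.16 ± 0.15 from CO1, and Cpt1a from none, with 0.04 ± 0.12, -0.04 ± 0.12 and 0.11 ± 0.12.

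Fibroblast and matrix markers moved with this comparison. Their 12 genes summed to 329 to 782.4 CPM in non-exercised ANT1 soleus, against 1207.4 to 5355.2 in ND5, 503.7 to 1253.3 in ND6 and 636.5 to 2557 in CO1. In ANT1 soleus 11 of 12 were called lower (median -1.80), as were 7 of 8 macrophage markers, and none was at 0. With the matrix sum as a covariate, an alternative added after the data were seen, 20 members were called higher (median 0.42) and 0 lower. The share of all tested genes called in that fit is not given here. By step these were 1 of 5 in uptake, 1 of 2 in activation, 2 of 5 in the shuttle, 8 of 9 in the spiral, 4 of 4 for unsaturated acids, 3 of 3 in electron transfer, 1 of 4 of the thioesterases with Ucp3 and 0 of 2 in the lipid droplet. The part of this tissue difference in the result was not tested further. Of 7 slow fibre genes 1 was higher and 5 lower, and of 10 fast fibre genes 3 were higher and 4 lower. Of 8 white adipocyte markers 2 were called higher and of 7 capillary endothelium markers 4. Of red blood cell genes 5 of 5 tested were higher, of brown adipocyte genes 2 were higher and 1 lower of 3, and of atrial genes 1 was higher and 3 lower of 4, while cardiomyocyte genes had 2 lower of 3. Those counts are on the TMM scale; on library totals 0 of these slow fibre, fast fibre, endothelium, white adipocyte and red blood cell genes were higher, and 6 of 7, 9 of 10, 6 of 7, 1 of 8 and 0 of 5 were lower.

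Exercised mice allowed the same comparison in other animals. In exercised ANT1 soleus 28 of 34 members were higher than in the exercised mtDNA strains and 0 lower, with a median of 0.63 beside -0.02 over all genes. The background was 21.1% higher and 22.4% lower. Slc27a1, Angptl4, Cpt1a, Acot1, Ucp3 and Plin5 were not called, with differences of 0.25, -0.32, -0.10, 0.64, -0.04 and 0.51. Values of Eci1 were 295, 353 and 386 CPM in exercised ANT1, against 128, 177 and 192 in CO1, 108, 156 and 186 in ND6 and 116, 161 and 174 in ND5. The groups again lay apart, at a difference of 1.13 ± 0.11, with Fabp3 at 1.03 ± 0.13 and Hadh at 1.01 ± 0.08. Ucp3, called in neither treatment, had 58.9, 96.2 and 161 CPM in exercised ANT1, against 76.2, 101 and 173 in CO1, 69.7, 111 and 224 in ND6 and 62.6, 67.4 and 158 in ND5, with full overlap. Plin5 averaged 82.3 ± 11.3 CPM in exercised ANT1, against 53.3 ± 14.1 in CO1, 75.2 ± 47.1 in ND6 and 48.6 ± 9.10 in ND5. A single ND6 library at 167 CPM widened that spread. In all, 19 members had no overlap and stood above, and 0 below, beside 5.19% of tested genes above and 3.36% below. On library totals 10 were higher and 2 lower. Fibroblast and matrix markers summed to 383.9 to 595.5 CPM in exercised ANT1 soleus, against 506.4 to 2216.8 in CO1, 632.4 to 3480.4 in ND6 and 688.4 to 2746.4 in ND5. Of them 9 of 12 were called lower (median -1.70), as were 8 of 8 macrophage markers, while 6 of 8 white adipocyte and 4 of 5 red blood cell markers were higher. With the matrix sum as a covariate 19 members were higher (median 0.31) and 0 lower. Whether the ANT1 difference itself changed with training was tested as an interaction, and 0 members were called (0% of all genes in either direction, median -0.09; 0 members at an unadjusted p under 0.05).

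**Figure D4:**
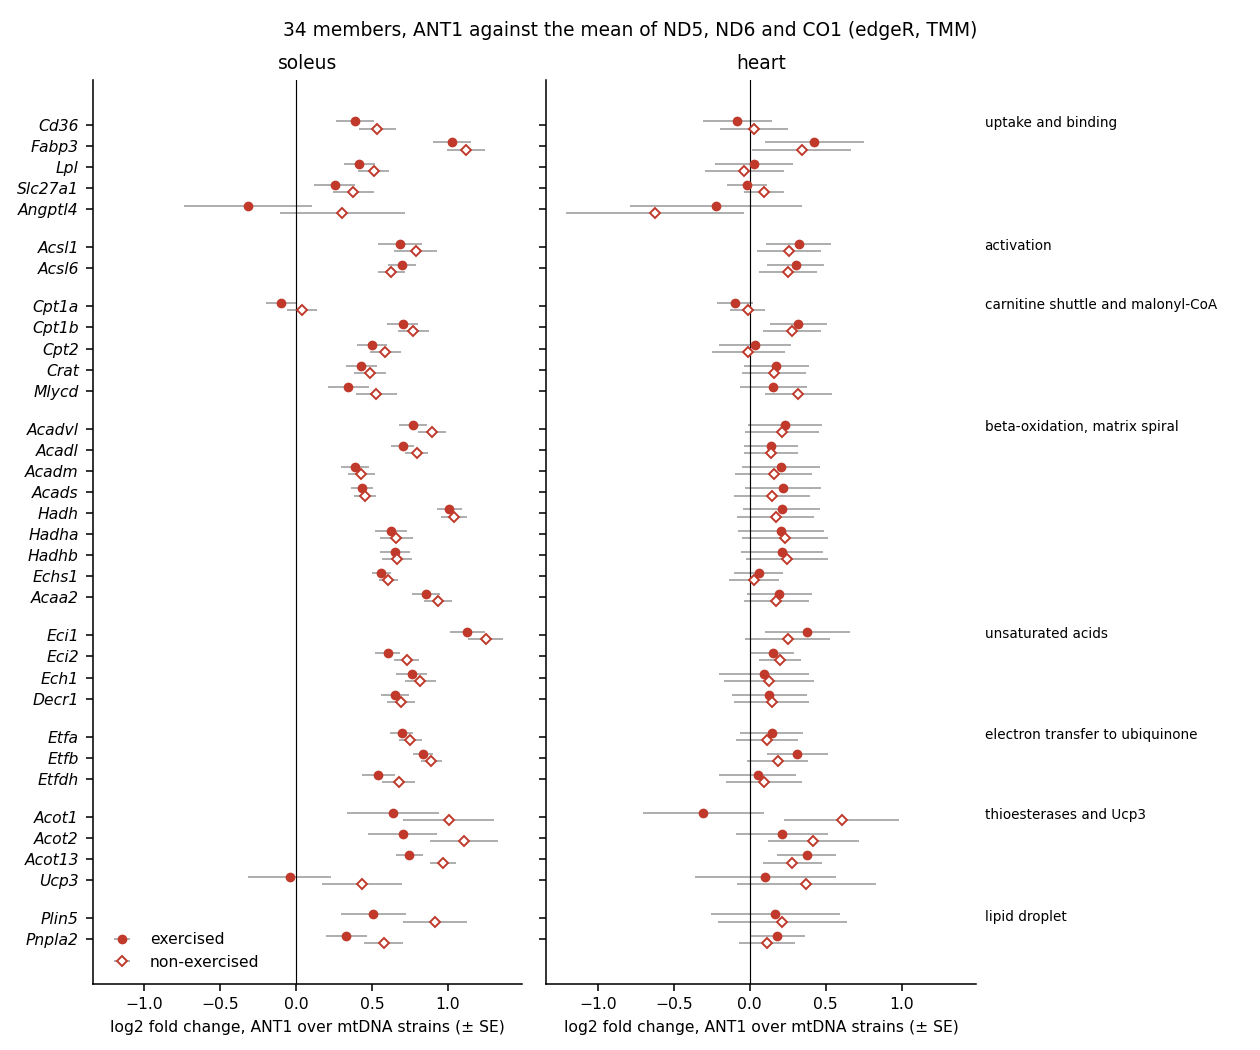
Log2 difference ± SE of each member (y, by step), ANT1 over the mean of ND5, ND6 and CO1, on the TMM scale (x), in soleus and heart; filled circles are exercised and open diamonds non-exercised mice. In soleus 31 members were called in non-exercised mice and 28 in exercised mice, and in heart 0 in both.

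The mtDNA strains were next compared with each other. In non-exercised ND5 soleus 18 of 34 members were lower than in ND6 and 0 higher, beside 4.51% of all genes called lower and 9.97% higher. The median was -0.36. Genes of the spiral made up 8 of the 18. Acadm had 327, 508 and 585 CPM in ND5, against 574, 667 and 734 in ND6, a difference of -0.46 ± 0.11 (adjusted p = 0.0072), with a small overlap at the top of ND5. Eci1 had 64.8, 132 and 151 CPM in ND5, against 149.7, 172 and 199 in ND6, a difference of -0.56 ± 0.15 (adjusted p = 0.0101). Slc27a1 differed by -0.63 ± 0.17 and Cpt1b by -0.47 ± 0.13. Ppargc1a, a coactivator of oxidative metabolism genes, differed in the same direction by -1.30 ± 0.41 (adjusted p = 0.0264).

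The calls varied with the libraries used, and most with 2 of the 6 ND5 libraries. B70 and B85 had the highest matrix sums of all soleus libraries, 5355.2 and 4193 CPM. The median log2 deviation of the members, each from its own median over all soleus libraries, was -0.99 and -0.74 there. In the other 4 it lay between -0.35 and -0.11. Without both libraries 0 members were called and the median was -0.20, and with the matrix sum as a covariate 0 were called. Leaving out 1 library at a time gave 1 call without B70, 4 without B85, 8 without I95 of ND6 and 10 without B19 of ND5 or I100 of ND6. Of the markers, 7 of 12 fibroblast and matrix genes and 7 of 8 macrophage genes were higher in ND5. Against CO1, 0 members were called in ND5 soleus with edgeR, nor was any of all genes (0% in either direction). The median was -0.24. At an unadjusted p under 0.05 there were 13 members, beside 3079 of all 13935 tested genes. DESeq2 called 2 members, and its share of all genes is not given here. With 1 library left out, 7 members were called without B10 of ND5, 2 without B3 of ND5 or E64 of CO1, and 1 without B47 of ND5. Likewise 0 members were called in ND6 against CO1 (median 0.13, 0 at an unadjusted p under 0.05, and 0% of all genes).

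**Figure D5:**
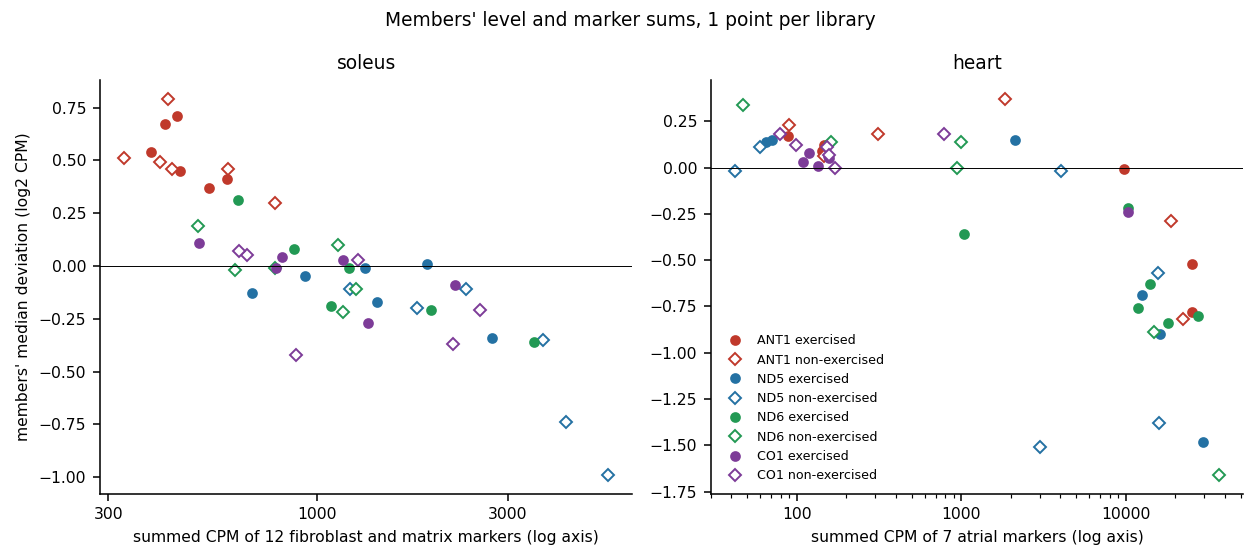
Median log2 deviation of the 34 members, each from its own median over all libraries of the tissue (y), against the summed CPM of 12 fibroblast and matrix markers in soleus and of 7 atrial markers in heart (x, log axes), 1 point per library. In soleus, ND5 libraries B70 and B85 sit lowest with the highest marker sums. In heart, the 25 libraries with a sum up to 1000 CPM lie between -0.02 and 0.34, and the 23 above it between -1.66 and 0.37.

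Training left no called change in these genes. In soleus 0 of 34 members were called in exercised against non-exercised mice of ANT1, ND5, ND6 or CO1, or on average over strains, and 0% of all genes were called in either direction in each, with edgeR. DESeq2 also called 0 members in each. The median differences were 0.01 for ANT1, 0.25 for ND5, -0.04 for ND6 and 0.09 for CO1. Unadjusted p-values were under 0.05 for 18 members in ND5, all higher in exercised mice, and for 0 in each other strain. Of all 13935 tested genes, 2087 were under 0.05 in either direction in ND5. There were 349 in ANT1, 688 in ND6 and 268 in CO1. In ND5, Eci1 had 116, 161 and 174 CPM in exercised mice, against 64.8, 132 and 151 in non-exercised mice, and the ranges overlapped, with a difference of 0.41 ± 0.15 (adjusted p = 0.184). Hadhb differed by 0.35 ± 0.12 and Acadm by 0.33 ± 0.11 (adjusted p = 0.176 and 0.171). Non-exercised ND5 held libraries B70 and B85, and without them the ND5 median was 0.09, while without B10 alone 1 member was called. On average over strains the median was 0.08, with 2 members at an unadjusted p under 0.05, beside 537 of all 13935 genes. Exercised mice whose labels call them responders had 0 members called against non-responders (median 0.09, 0 at an unadjusted p under 0.05, 0% of all genes).

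Hearts gave no called ANT1 difference. In non-exercised ANT1 hearts 0 of 34 members were called against the mtDNA strains, beside 0.617% of all genes higher and 0.299% lower, and in exercised hearts 0 were called beside 3.45% and 1.32%. The medians were 0.17 in both. DESeq2 called 0 too, and 0 members had an unadjusted p under 0.05. Eci1 had 95.6, 223 and 249 CPM in non-exercised ANT1 hearts, against 184, 206 and 210.3 in CO1, 42.5, 207 and 246 in ND6 and 48.4, 144 and 197 in ND5. The groups overlapped, and CO1 alone was tight. Fabp3 had 1089.6, 2878 and 3309.8 CPM in ANT1 hearts, against 2389, 2601 and 2826 in CO1, 509, 2214 and 2927 in ND6 and 211, 1866 and 2552 in ND5, a difference of 0.34 ± 0.33.

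The spread within heart groups went in part with the atrial markers. Hearts with an atrial sum over 1000 CPM had a median deviation of -0.69 over the members, and those up to 1000 CPM of 0.11. Not all hearts followed: ANT1 heart A58 was at 0.37 with 1845.4 CPM, and ND5 heart B83 at 0.15 with 2111.9 CPM. ND5 heart B80 was at -1.51 with a sum of 3006.8 CPM. All 6 non-exercised CO1 hearts were up to 1000 CPM, against 3 of 6 non-exercised ANT1, 2 of 6 ND5 and 4 of 6 ND6. Without the hearts over 1000 CPM the non-exercised ANT1 median was 0.02, and with the atrial sum as a covariate 0.29; 0 members were called in both. In non-exercised ND5 against CO1 hearts 0 members were called, beside 9.28% of all genes higher and 1.92% lower, with a median of -0.53. At an unadjusted p under 0.05 there were 9 members, beside 5191 of all 15723 tested genes, so the members did not stand out there. Leaving out 1 ND5 heart gave 3 calls without B5 and 1 without B21 or B70. Without the hearts over 1000 CPM that median was -0.07, and this also left out B80, the heart with the lowest cardiomyocyte sum. Training on average over strains gave a median of -0.12 in heart, with 0 members called, 0 at an unadjusted p under 0.05 and 0% of all genes called. The training difference in ANT1 minus that in the mtDNA hearts had a median of 0.02, again with 0 members called, 0 at an unadjusted p under 0.05 and 0% of all genes called. Of the exercised ND6 hearts, 0 of 6 were up to 1000 CPM. The part of the atrial markers in these values was not tested further.

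Whether the ANT1 difference was larger in soleus than in heart was tested over both tissues. All 34 estimates were higher in soleus, with a median of 0.58, and 9 members were called higher and 0 lower, beside 5.53% and 5.58% of 16172 genes. The 9 were Acadl, Hadh, Echs1 and Acaa2 of the spiral, Eci1 and Eci2, Etfa and Etfb, and Acot13. Eci1 had the largest, 1.03 ± 0.32 (adjusted p = 0.0236), followed by Hadh with 0.90 ± 0.28 (adjusted p = 0.0236). As 19 mouse codes occur in both tissues, the code was also taken as a block, which left 5 called: Acadl, Echs1, Acaa2, Eci2 and Etfb. These codes include exercised mice, and B80, whose treatment labels differ between the tissues. On library totals 1 was called and by deposited FPKM 0. Leaving out ANT1 heart A80 gave 0, A63 gave 4 and ND5 heart B80 gave 11. Without the hearts over 1000 CPM 25 were called. The share of all tested genes called in these alternative fits is not given here, so the changes in count cannot be read as particular to the members. Of the markers, 7 of 12 fibroblast and matrix genes (median -1.68) and 3 of 8 macrophage genes were called lower in this difference, and 2 of 8 white adipocyte genes higher. Their part in it was not tested.

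Levels in non-exercised soleus against heart differed by gene. On the TMM scale 6 members were higher in soleus and 19 lower, beside 37.7% of all genes higher and 42.7% lower, with a median of -0.33. On library totals 2 were higher and 24 lower. Ucp3 was higher in soleus by 1.37 ± 0.24 and Mlycd by 0.86 ± 0.12. Mlycd averaged 112 ± 16.1 CPM in non-exercised CO1 soleus and 85.1 ± 2.01 in CO1 heart. Acsl6, Crat, Slc27a1 and Eci1 were higher by 0.26, 0.24, 0.23 and 0.29, and Eci1 turned to -0.01 without the hearts over 1000 CPM. Lower in soleus were Cpt1a at -1.97 ± 0.07, Acot1 at -1.07 ± 0.23, Angptl4 at -0.97 ± 0.31, Ech1 at -0.81 ± 0.14, and Cd36 and Hadhb at -0.73 and -0.73. Cpt1a had 8.94, 9.33 and 11.7 CPM in CO1 soleus and 38.2, 42.6 and 57.6 in CO1 heart, with no overlap. The CPM values were scaled within each tissue, while the differences come from a fit over both.

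Other genes of fatty acid metabolism, from lists of 120 genes in all, were counted in the same ANT1 comparison in non-exercised soleus on the TMM scale, where 22.4% of all tested genes were higher and 25.3% lower. Slc25a20, the carnitine-acylcarnitine carrier of the shuttle, was higher by 0.65 ± 0.10. In other mitochondrial oxidation 13 of 16 tested genes were higher and 1 lower, with Hsd17b10 (0.78) and Hibch (0.68) having the smallest p-values. Peroxisomal oxidation had 13 of 16 higher, with Phyh, the phytanoyl-CoA hydroxylase, at 1.17 and Scp2 at 0.47. Other droplet and lipolysis genes had 9 of 14 higher, with Plin3 at 1.69 and Agpat2 at 1.23. Other uptake genes had 5 of 9 higher (Lmf1 0.58, Got2 0.56) and ketone body genes 3 of 5 (Oxct1 0.87). Fatty acid synthesis was split, with 4 higher and 4 lower of 11: Acaca, an acetyl-CoA carboxylase, was higher by 1.06 and Fasn, the fatty acid synthase, was at -1.12. Other activation had 2 higher (Acss2 0.79) and 4 lower (Acsl4 -0.45) of 6, and other thioesterases and uncoupling proteins 2 and 2 of 8 (Them4 0.53, Acot7 0.37).

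Regulators had 6 higher and 5 lower of 21, shares close to those of all tested genes. Pparg, a fatty acid receptor, was at 1.09 and Esrra, an orphan receptor of oxidative genes, at 0.62. Ppargc1a was higher by 0.93 ± 0.31 (adjusted p = 0.0119), while Ppara, the fatty acid receptor of muscle and liver, at 0.02 ± 0.25 and Pdk4, a kinase that shuts off pyruvate oxidation and a known target of that receptor, at 0.13 ± 0.33 were not called. Of 7 fuel choice kinases and phosphatases 2 were higher (Pdp2 0.96) and 1 lower (Pdk1 -0.59). These counts also depend on the scaling. On library totals 0 of 9 other uptake genes were higher and 7 lower, 2 of 16 other mitochondrial genes were higher and 7 lower, 1 of 16 peroxisomal genes was higher and 9 lower, and 4 of 14 droplet genes were higher and 5 lower. Of 11 genes of synthesis 1 was higher and 9 were lower, of 5 ketone body genes 1 and 2, of 6 of other activation 0 and 4, of 8 other thioesterases and uncoupling proteins 0 and 6, and of 7 fuel choice genes 0 and 5. There 1 regulator was higher and 16 were lower, and Esrra was at -0.02, whereas Plin3, Agpat2, Phyh, Acaca and Pparg were still positive, at 1.05, 0.58, 0.52, 0.43 and 0.43.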

How the data were processed

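Poly(A) RNA of both tissues, caught on oligo(dT) beads, was sequenced in paired-end libraries, per the labels' protocols. The authors deposited expected counts per gene, estimated and not always whole, and FPKM values, each in a table per tissue. STAR 2.5.2b, RSEM 1.2.28 and the build mm10 are named in the submitters' processing notes, and their settings are not given in the sources used here. A column was given to the sample whose title holds the same mouse code and tissue. Another 48 columns over the 4 tables (24 in the count tables) matched no title and were not used, which leaves out the B6 control strain and gives 96 of 120 labelled samples.

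Expected counts were rounded to whole numbers. After filterByExpr, soleus had 13935 tested genes, heart 15723, the fit of responders 13843 and the fit over both tissues 16172. Libraries were scaled by TMM, and edgeR 4.0.16 (R 4.3.3) quasi-likelihood F tests were run on 1 mean per group, fitting each tissue's libraries together. Adjustment was Benjamini-Hochberg over all tested genes, and 0.05 was the threshold for a call. Deposited FPKM values served to compare levels between genes and, as log2(FPKM + 0.1) in limma 3.58.1, as an alternative. DESeq2 1.42.0 was another. On simulated soleus counts, the edgeR step was tested with known changes. The members, the pathway and marker lists and the tests were chosen with earlier results of these data known. All 34 members are named whatever their change, and 2 genes with the smallest p from each other pathway list, of which 1 is not reported here. Library totals vary from 10.2 to 26.5 M counts (M for mega), and members below about 10 CPM (Angptl4, Acot1, Cpt1a) are the least precise.

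The mouse codes pair the tissues, since 19 codes occur in both, B80 with its differing treatment labels among them. Blocking on the mouse in limma gave a consensus correlation of 0.0376 between the tissues of a mouse, after group means. No library repeats another of its group: over 120 within-group pairs in each tissue, chi-square per gene was at least 7.14 (soleus) or 6.77 (heart). Libraries of different groups were not compared in this way. The labels do not say that strand was kept, so overlapping genes are uncertain. Besides Cpt1b, Etfb, Acot1 and Acot2, further members share 100-base windows with other annotated genes. The shares were 21.7% for Fabp3, 14.8% for Hadhb, 1.2% for Eci2 and 0.4% for Echs1. Promoter windows are from RefSeq (GRCm38.p6). Leaving out libraries, other scalings and marker sums as covariates were tried, and their effect is given with the results.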

Additional observations from a re-analysis of the deposited data

Results flagged for a closer look

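Within groups of 6 libraries, the highest or lowest library stood far from the other 5 in 34 of 544 member and group combinations (6.25%), where chance flags about 1 in 20. Of these 25 were lowest and 9 highest libraries. Heart library E50 of exercised CO1 mice accounted for 9 and soleus library B9 of exercised ND5 mice for 5. In E50 the levels were 389 CPM for Cpt1b, 776 for Acadl, 758 for Acadm, 1467 for Hadhb, 222 for Echs1, 139 for Eci1, 279 for Decr1, 451 for Etfa and 106 for Acot13, each the lowest of its group. E50 was the single exercised CO1 heart with an atrial sum over 1000 CPM, at 10269 CPM, and the part of that in these values was not tested. In B9 they were 497 CPM for Acadvl, 212 for Hadh, 566 for Hadha, 116 for Eci1 and 65.2 for Acot13, again the lowest. Its matrix sum of 2746.4 CPM was the highest of the exercised ND5 soleus libraries.

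The other soleus libraries far from their group were I85 of non-exercised ND6 with 627 CPM of Cd36, I100 of the same group with 3540 CPM of Lpl, A17 of exercised ANT1 with 6.23 CPM of Angptl4, and A58 of non-exercised ANT1 with 13.3 CPM of Angptl4. Library I50 of exercised ND6 had 1093 CPM of Acsl1 and 412 CPM of Pnpla2, E50 of exercised CO1 14.0 CPM of Acsl6, and E78 of the same group 89.2 CPM of Cpt2. In non-exercised ANT1, A82 had 178 CPM of Echs1, and A88 had 317 CPM of Eci1 and 335 CPM of Etfb. These last 3 values are low for ANT1 and still above the 18 non-exercised mtDNA libraries.

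In heart, E56 of exercised CO1 had 1929 CPM of Cd36, E42 of non-exercised CO1 27.0 CPM of Acsl6, and E75 of the same group 158 CPM of Acads and 579 CPM of Etfdh. Library B80 of non-exercised ND5, the heart with the lowest cardiomyocyte sum, had 41.4 CPM of Angptl4 and 3.16 CPM of Acsl6. Library I50 of exercised ND6 had 108 CPM of Eci2, I53 of non-exercised ND6 7.11 CPM of Ucp3, and A71 of exercised ANT1 193 CPM of Pnpla2.

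The ANT1 difference of non-exercised soleus exceeded that of heart in 9 members by the test of the difference itself (edgeR, adjusted over all genes): log2 0.69 for Acadl, 0.67 for Etfa, 0.79 for Acaa2, 0.90 for Hadh, 0.74 for Etfb, 1.03 for Eci1, 0.61 for Echs1, 0.56 for Eci2 and 0.72 for Acot13. With the mouse as a block 5 of these were called, on library totals 1, by FPKM 0, with no low-count filter 0, and without ANT1 heart A80 0.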

How the results depend on the processing

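RLE scaling, leaving out mtDNA-encoded genes, DESeq2, no low-count filter and fitting the compared groups alone left 26 to 31 members higher and 0 lower in ANT1 soleus, in both treatments. Library totals and deposited FPKM (added after seeing the data, like the marker covariates and the libraries left out by marker sum) gave 12 and 12 called members in non-exercised ANT1 soleus, 12 and 14 in exercised, 13 and 15 against ND5, 7 and 8 against ND6, 11 and 11 against CO1, 5 and 5 in ND5 against ND6, and 1 and 0 in the tissue difference. Non-overlapping members by FPKM were 1 in each treatment. The matrix covariate gave 20 in non-exercised ANT1 soleus, 15 against ND5 and 0 in ND5 against ND6, which was also 0 without B70 and B85. DESeq2 called 2 members in ND5 against CO1 in soleus and 1 in heart. In the tissue difference 0 were called with no low-count filter, 5 with the mouse as a replicate block and 25 without hearts of an atrial sum over 1000 CPM; with the block 7 members were higher and 18 lower in soleus against heart, and the other comparisons lie within 1 tissue and have no pairs. Leaving out 1 library at a time gave the following counts of called members: 30 to 31 in non-exercised ANT1 soleus, 25 to 30 in exercised, 30 to 31 against ND5, 22 to 26 against ND6, 27 to 30 against CO1, 1 to 24 in ND5 against ND6, 0 to 7 in ND5 against CO1 in soleus and 0 to 3 in heart, 0 to 1 for training in ND5, 0 to 11 for the tissue difference, 24 to 26 for soleus against heart, and 0 in every other comparison. Below 0 in non-exercised ANT1 soleus on library totals were Cd36 -0.10, Lpl -0.13, Slc27a1 -0.26, Angptl4 -0.35, Acsl6 -0.024, Cpt1a -0.62, Cpt2 -0.054, Crat -0.15, Mlycd -0.11, Acadm -0.21, Acads -0.18, Echs1 -0.033, Ucp3 -0.21 and Pnpla2 -0.062. By FPKM these were Cd36 -0.13, Lpl -0.12, Slc27a1 -0.32, Angptl4 -0.36, Acsl6 -0.002, Cpt1a -0.60, Cpt2 -0.059, Crat -0.26, Mlycd -0.13, Acadm -0.28, Acads -0.22, Hadha -0.038, Echs1 -0.045, Ucp3 -0.23 and Pnpla2 -0.13. In exercised mice library totals gave Cd36 -0.14, Lpl -0.13, Cpt2 -0.038, Crat -0.10, Mlycd -0.19, Acadm -0.15, Acads -0.11 and Pnpla2 -0.21, and FPKM gave Cd36 -0.16, Lpl -0.13, Cpt2 -0.038, Crat -0.19, Mlycd -0.20, Acadm -0.27, Acads -0.12, Etfdh -0.004 and Pnpla2 -0.24. Of members not called there on the TMM scale, library totals gave Slc27a1 -0.28, Angptl4 -0.86, Cpt1a -0.65, Ucp3 -0.57 and Plin5 -0.016. FPKM gave Slc27a1 -0.34, Angptl4 -0.72, Cpt1a -0.64 and Ucp3 -0.62. Angptl4, Cpt1a and Ucp3 were below 0 on the TMM scale too. The cause of these turns was not tested. Slc27a1 was -0.052 with the matrix covariate, Angptl4 ranged from -0.38 (without ANT1 library A58) to 0.49 with 1 library left out, and Eci1 was -0.013 in soleus against heart without the hearts over 1000 CPM; their cause was not tested. No share of all tested genes called is given for the alternatives in this section. Depth limits the members below about 10 CPM.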
